A study of Salix viminalis with 12 samples.

Results

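Described here are 10 Arabidopsis genes of glycolysis and of the oxidative branch of the pentose phosphate pathway (OPPP), as they appear in the root transcriptome of *Salix viminalis*, a shrub willow. They are the cytosolic glyceraldehyde 3-phosphate dehydrogenases (GAPDH) AT3G04120 (GAPC1) and AT1G13440 (GAPC2), the aldolase AT3G52930 (FBA8), the phosphoglycerate kinase AT1G79550 (PGK3), the enolase AT2G36530 (ENO2), the glucose-6-phosphate dehydrogenases (G6PDH) AT3G27300 (G6PD5) and AT5G40760 (G6PD6), and the 6-phosphogluconate dehydrogenases (6PGDH) AT1G64190 (PGD1), AT3G02360 (PGD2) and AT5G41670 (PGD3). A contig, which here is a coding sequence predicted on an assembled transcript, was counted for an enzyme when its gene model code, read without the dot suffix, was that of the gene. In all, 83 contigs were found, of 64173 contigs with a code and 86843 contigs in the table.

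Glycolysis splits hexoses into pyruvate and yields ATP and NADH, while the OPPP oxidises glucose 6-phosphate and yields NADPH for biosynthesis and for reduction of glutathione. Both run in the cytosol and in the plastids of plant cells, and roots feed them with sucrose imported from the shoot.

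The plants were rooted cuttings of a single willow individual, so that all 12 libraries share a genotype, and 3 libraries were made for each of 4 groups. MC plants grew in soil to which Cd (1.5 ppm), Cu (175 ppm), Ni (30 ppm) and Zn (500 ppm) had been added as chlorides and were cold-acclimated for 4 weeks at 7/5 °C (day/night), MT plants grew in the same soil at 23/20 °C, CC plants were cold-acclimated in control soil, and CT plants stayed in control soil at 23/20 °C. The soil treatment began 40 days before the cold, and the sample labels give 4 °C and 22 °C for the cold and temperate treatments. All groups had a photoperiod of 16 h, also during the cold. The table analysed here names and annotates the contigs assembled from all libraries together and has 0 columns with a value per library. It gives neither the depth of a library nor a level of these enzymes in MC, MT, CC or CT roots, and the groups were not compared. What it shows is which enzyme genes were matched by the root transcripts, by how many contigs, and how those contigs lie in the assembly. A number of contigs is neither an expression level nor a number of willow genes. The 8 root markers looked up, among them the root patterning regulators SHR and SCR and the root auxin carrier PIN2, were all matched, by 1 to 6 contigs each. The 4 leaf markers, among them RBCS1A and LHCB1.3, were matched as well, by 2 to 4 contigs each, and their part in the counts of the enzymes was not tested.

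Of the 10 genes, 7 were matched by at least 1 contig. ENO2 had 17 contigs, GAPC2 had 15 contigs, PGD3 had 14 contigs, PGK3 had 12 contigs, GAPC1 had 11 contigs, PGD2 had 8 contigs and G6PD6 had 6 contigs. The enzymes of lower glycolysis and PGD3 thus stood at the top of the matched genes, and G6PD6, a cytosolic enzyme that opens the OPPP, at the bottom. No contig was listed for FBA8, G6PD5 or PGD1. Taking 3 contigs as the limit that a count of 0 allows, 0 of 64173 contigs allows a share of up to 0.00467% of the contigs with a code, and it says only that no willow transcript was given this code. Over the 10 genes the median was 9.5 contigs, and over the 7 matched genes 12 contigs. The 5 glycolytic genes held 55 contigs (66.3%) and the 5 OPPP genes 28 contigs. Together the 83 contigs made up 0.129% of the contigs with a code, with a 95% exact binomial (Clopper-Pearson) interval of 0.103% to 0.160%, which covers counting error only, since contigs are not independent draws.

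**Figure D1:**
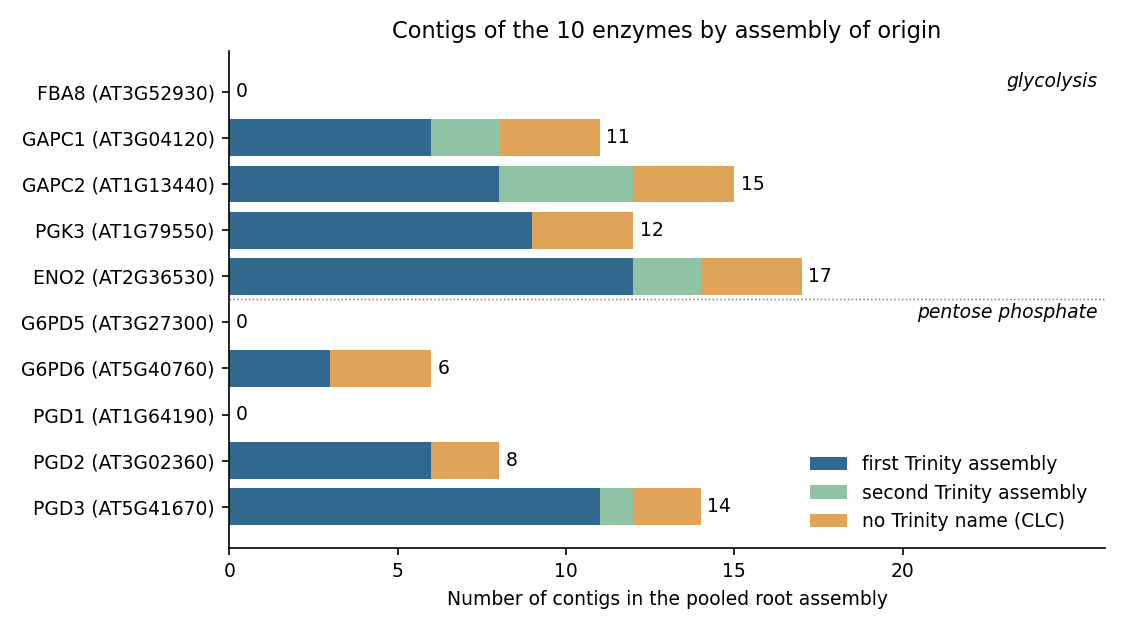
Number of contigs (x axis) of each of the 10 enzyme genes (y axis), split by the assembly that the contig name shows, with the total beside each bar. FBA8, G6PD5 and PGD1 have 0 contigs, the other 7 genes 6 to 17 contigs, and each of these 7 has contigs of the first Trinity assembly and contigs without a Trinity name.

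The 7 matched genes lay in the upper part of the assembly. The 13764 Arabidopsis genes with a contig had a median of 3 contigs, with quartiles of 2 and 5, and all 7 had more contigs than the upper quartile. At least 10 contigs were found for 5 of the 10 enzymes, namely ENO2, GAPC2, PGD3, PGK3 and GAPC1, which are 5 of the 7 matched, against 8.74% of all genes with a contig. The enzymes include 3 genes with 0 contigs, whereas a gene without a contig cannot appear in the table, so that both shares have different bases. The count depends on what is counted. With first gene models only, 3 enzymes (ENO2, GAPC2 and GAPC1) had at least 10 contigs, against 7.75% of the genes. Among contigs named for the first Trinity assembly 2 enzymes (ENO2 and PGD3) did, against 3.85% of the genes. Counted by Trinity genes the same 2 had at least 10, against 3.05% of the genes. No enzyme had 10 contigs named for the second Trinity assembly or 10 contigs without a Trinity name, against 1.16% and 0.737% of the genes. By parent transcripts 5 did (against 8.51%), and among contigs with a description 5 did (against 9.49%). ENO2 ranked 331 among all genes, and 2.68% of genes had as many contigs or more. GAPC2 ranked 422 (3.54% of genes with as many or more), PGD3 ranked 488 (4.09%), PGK3 ranked 669 (5.80%) and GAPC1 ranked 799 (6.89%). PGD2, with rank 1478 and 13.7% of genes at or above it, and G6PD6, with rank 2438 and 23.3%, were closer to the bulk of the genes. These ranks describe a pooled assembly without replicates, and no test was made of them.

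**Figure D2:**
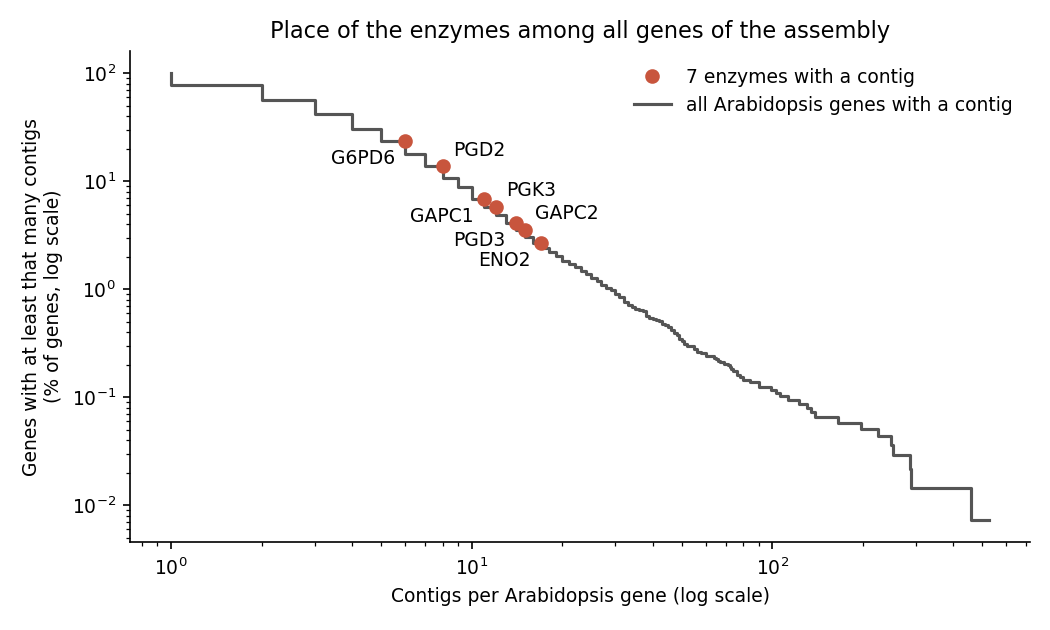
Percentage of the 13764 Arabidopsis genes (y axis, log scale) with at least a given number of contigs (x axis, log scale), as a grey line, with the 7 matched enzymes as red points. The enzymes lie between G6PD6 (6 contigs, 23.3% of genes) and ENO2 (17 contigs, 2.68% of genes), far from the highest gene with 525 contigs.

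Aldolase cleaves fructose 1,6-bisphosphate into triose phosphates. FBA8, a main cytosolic isoform of Arabidopsis, had 0 contigs, and the step was carried in the table by other genes of the family. The cytosolic isoforms AT2G36460 (FBA6) and AT4G26530 (FBA5) had 10 and 8 contigs, and the cytosolic isoforms AT5G03690 (FBA4) and AT4G26520 (FBA7) had 0 contigs. Of the plastid isoforms, AT2G01140 (FBA3) had 2 contigs, AT4G38970 (FBA2) had 1 contig and AT2G21330 (FBA1) had 0 contigs. In all, 18 of the 21 aldolase contigs thus lay on cytosolic codes, all of them outside the 10 genes.

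GAPDH oxidises glyceraldehyde 3-phosphate and reduces NAD in the cytosol. GAPC1 had 6 contigs of the first Trinity assembly, 2 contigs of the second and 3 contigs without a Trinity name. GAPC2 had 8, 4 and 3 contigs in the same order, the most of the second Trinity assembly among the 10 genes. Together they made up 26 of the 42 contigs of the 7 phosphorylating GAPDH genes, or 61.9% (95% exact interval 45.6% to 76.4%). This interval and those of the families below cover counting error only, since contigs are not independent draws. Among the plastid forms, AT1G16300 (GAPCp2), a glycolytic enzyme of non-green plastids, had 11 contigs, as many as GAPC1. The photosynthetic subunits of the Calvin cycle were lower, with 3 contigs for AT3G26650 (GAPA1), 2 contigs for AT1G42970 (GAPB) and 0 contigs for AT1G12900 (GAPA2). AT1G79530 (GAPCp1), the close copy of GAPCp2, had 0 contigs. The non-phosphorylating enzyme AT2G24270 (NP-GAPDH), which makes NADPH, had 3 contigs and is not counted among the 7.

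Phosphoglycerate kinase makes ATP from 1,3-bisphosphoglycerate. PGK3, the cytosolic form, had 9 contigs of the first Trinity assembly, 0 contigs of the second and 3 contigs without a Trinity name. It held 12 of the 22 contigs of the family (54.5%, 95% exact interval 32.2% to 75.6%), while the plastid forms AT3G12780 (PGK1) and AT1G56190 (PGK2) had 7 and 3 contigs. Its contigs were split between gene models, with 5 contigs on its first model and 7 contigs on its second.

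Enolase makes phosphoenolpyruvate. ENO2, also known as LOS2, is the main cytosolic enolase of Arabidopsis and was first known there from a mutant with an altered cold response. It had 12 contigs of the first Trinity assembly, 2 contigs of the second and 3 contigs without a Trinity name, all on its first gene model. It held 17 of the 27 enolase contigs (63.0%, 95% exact interval 42.4% to 80.6%), against 7 contigs for the plastid enolase AT1G74030 (ENO1) and 3 contigs for AT2G29560 (ENO3), which the table describes as a cytosolic enolase.

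G6PDH catalyses the first and controlling step of the OPPP. G6PD6 had 3 contigs of the first Trinity assembly, 0 contigs of the second and 3 contigs without a Trinity name, and G6PD5, the other cytosolic isoform, had 0 contigs. This was the family in which the genes described here held the smallest share where they had any, with 6 of 20 contigs (30.0%, 95% exact interval 11.9% to 54.3%). The plastid isoforms AT5G13110 (G6PD2) and AT5G35790 (G6PD1) had 5 and 4 contigs, AT1G24280 (G6PD3) had 0 contigs, and AT1G09420 (G6PD4), which in Arabidopsis is not an active enzyme by itself, had 5 contigs.

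6PGDH carries out the second NADPH-yielding step of the OPPP and releases CO2. PGD3, which in Arabidopsis is found in plastids and cytosol, had 11 contigs of the first Trinity assembly, 1 contig of the second and 2 contigs without a Trinity name, with 7 contigs on each of its first and second gene models. PGD2, found in cytosol and peroxisomes, had 6, 0 and 2 contigs in the same order, all on its first gene model. PGD1, which shares the compartments of PGD3, had 0 contigs. Together they had 22 contigs. All 3 genes of the family are among the 10 genes, so that no share of the family can be given. The table gives no gene symbol for them and describes them as a 6-phosphogluconate dehydrogenase family protein.

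**Figure D3:**
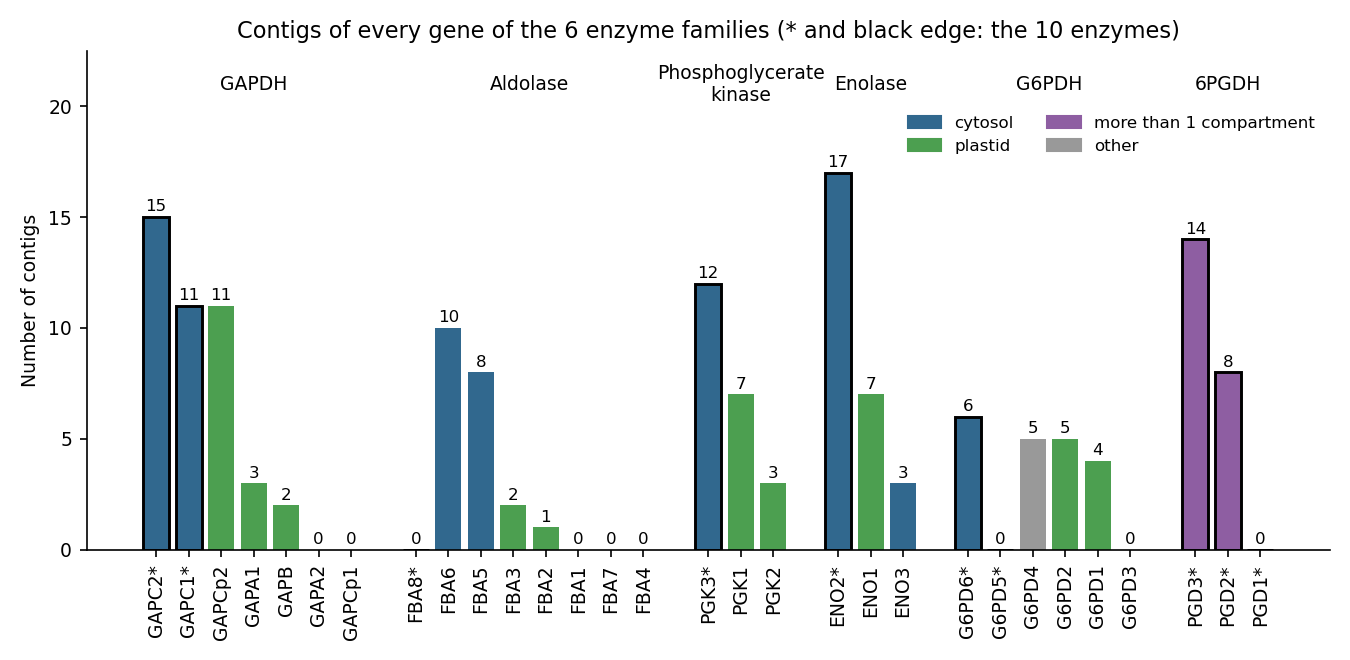
Number of contigs (y axis) of every gene (x axis) in the 6 enzyme families, coloured by the compartment known for the Arabidopsis protein, with a black edge and an asterisk for the 10 enzymes. The highest bar is on 1 of the 10 enzymes in 5 of the families. One of these is 6PGDH, where it could not be otherwise, since all its genes are among the 10. In the aldolases it is on FBA6 with 10 contigs, while FBA8 has 0.

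In the 5 families other than 6PGDH, whose forms occupy more than 1 compartment each, the 12 cytosolic genes had 82 contigs, and the 14 plastid genes had 45 contigs. G6PD4, with 5 contigs, is counted in neither. Of the cytosolic genes 8 were matched, and of the plastid genes 10. By family, cytosolic codes had more contigs than plastid codes for aldolase (18 and 3), enolase (20 and 7), GAPDH (26 and 16) and phosphoglycerate kinase (12 and 10), and fewer for G6PDH (6 and 9). The compartments are those of the Arabidopsis proteins, and the place of the willow proteins was not analysed here.

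The contigs of the 7 matched genes were spread widely over the assembly. Their 83 contigs lay on 83 different parent transcripts, and none of these transcripts carried another contig. Of all contigs with a code, 3.08% shared a parent transcript with another contig, and 0 of 83 is too few to set apart from that share. The 64 contigs with a Trinity name came from 54 Trinity genes (groups of transcripts that Trinity puts at the same locus within an assembly). They came from 48 components (sets of contig names with the same assembly and DN number). A locus that kept contigs of both Trinity assemblies after similar sequences were collapsed is counted in each, so that these are not numbers of distinct loci. ENO2 had 14 Trinity contigs in 13 Trinity genes, PGD3 had 12 in 10, GAPC2 had 12 in 8, PGK3 had 9 in 7, GAPC1 had 8 in 7, PGD2 had 6 in 6 and G6PD6 had 3 in 3. The median was 7 Trinity genes over the 7 enzymes, against 2 over the 11713 genes with a Trinity contig. The 7 enzymes also had more contigs (median 12, against 3 over all genes with a contig), and the Trinity genes were not adjusted for this. Of the Trinity contigs of the enzymes, 25.0% shared a Trinity gene with another contig of the same code, against 49.0% of all Trinity contigs with a code, a difference given here as a description.

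Of the 54 Trinity genes, 6 held more than 1 contig, and these 6 together held 16 contigs. Over the whole table, 9206 of the 31996 Trinity genes with a coded contig held more than 1. A Trinity gene of the second assembly held 4 contigs of GAPC2 (isoforms i3, i4, i5 and i8), and another of the first assembly held 2 contigs of GAPC2. A Trinity gene each of the first assembly held 3 contigs of PGK3, all on its second model, 3 contigs of PGD3, on both of its models, 2 contigs of ENO2 (i6 and i7) and 2 contigs of GAPC1 (i3 and i12). Each of the 6 Trinity genes held a single Arabidopsis gene. Over all genes, 11.9% of the 9206 Trinity genes with more than 1 contig with a code held several, and 0 of 6 is too few to set apart from that share.

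At the level of components, contigs of related enzymes lay side by side. PGD2 and PGD3 shared 2 components of the first assembly (DN81760 and DN91639), each with 1 contig of either gene on a Trinity gene of its own. GAPC1 and GAPC2 shared a component in the same way (DN94117), and GAPC2 shared another (DN99341), where it had 2 contigs, with the plastid GAPCp2, which had 4 contigs. Component DN111827 of the second assembly held 2 contigs of GAPC1 and 1 contig of AT5G64620, an inhibitor of fructosidase in the cell wall and vacuole. Component DN107655 of the same assembly, in which the c numbers of the names differ, held 1 contig of PGD3 and 2 contigs of AT5G39590, a TLD-domain protein. These 6 components are 12.5% of the 48, and 12.6% of all components with a coded contig held more than 1 Arabidopsis gene, so that the share itself is near that of the whole table. In these components, which of the closely related codes a contig received depends on the authors' match, and the counts of GAPC1 against GAPC2 and of PGD2 against PGD3 are uncertain to that extent.

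The name of a contig shows the assembly of the sequence that was kept when similar ones were collapsed. It does not show all that an assembly contained. The first Trinity assembly gave 55 of the 83 contigs (66.3%), against 52.9% of all contigs with a code. The second gave 9 contigs (10.8%, against 21.4%), on GAPC2, GAPC1, ENO2 and PGD3, and 19 contigs (22.9%, against 25.8%) carried a name without the Trinity pattern, here counted as CLC contigs. Each matched enzyme had 2 (PGD2 and PGD3) or 3 CLC contigs. The 9499 genes with a CLC contig had a median of 1, and 37.0% of them had 2 or more and 12.4% had 3 or more. The number of the coding sequence on its transcript, which ends each contig name, was above 1 for 14 of the 83 contigs (16.9%), against 11.8% of all contigs with a code. G6PD6 had 3 such contigs of 6 and GAPC2 had 4 of 15. The first gene model of a code was given for 69 of the 83 contigs (83.1%), against 86.8% of all contigs with a code, and the other 14 lay on the second models of PGK3 and PGD3.

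The 10 genes were then set against a list of 83 Arabidopsis genes that covers the 19 enzyme steps of glycolysis and the pentose phosphate pathway, its non-oxidative branch included. Of this list, 56 genes were matched, by 353 contigs in all, namely 39 of the 58 glycolytic genes with 242 contigs and 17 of the 25 pentose phosphate genes with 111 contigs. Each of the 19 steps had at least 1 matched gene. The 73 genes outside the 10 had 270 contigs, and their 49 matched genes had a median of 4 contigs, against 12 for the 7 matched enzymes. At least 10 contigs were found for 13 genes of the list, 5 of them among the 10 enzymes. The other 8 were among the 49 matched genes outside the 10, and 8.74% of all genes with a contig had at least 10.

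Of the other steps of glycolysis, pyruvate kinase, which makes pyruvate and ATP, had 35 contigs, with 13 on AT5G08570, the gene with the most. Hexokinase, which phosphorylates glucose, had 25 contigs, with 11 on AT2G19860 (HXK2), while the glucose sensor AT4G29130 (HXK1) had 0 contigs. Triose phosphate isomerase had 18 contigs, 11 of them on the cytosolic AT3G55440, and ATP-dependent phosphofructokinase had 16 contigs, with 7 each on AT4G26270 (PFK3) and AT5G61580 (PFK4). The pyrophosphate-dependent phosphofructokinase had 14 contigs, 8 of them on the beta subunit AT1G12000, and phosphoglucose isomerase had 12 contigs, 10 of them on the cytosolic AT5G42740. Phosphoglycerate mutase, which acts between PGK3 and ENO2, had only 7 contigs, with 4 on AT3G08590.

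In the pentose phosphate pathway, 6-phosphogluconolactonase, which acts between G6PDH and 6PGDH, had 11 contigs, with 6 on AT1G13700 (PGL1). The non-oxidative branch was led by transaldolase with 21 contigs, 16 of them on AT1G12230, and by transketolase with 18 contigs, all on AT2G45290 (TKL2). Ribose-5-phosphate isomerase had 13 contigs, 6 of them on AT3G04790, and ribulose-5-phosphate epimerase had 6 contigs, 4 of them on AT5G61410. TKL2 had the most contigs of the whole list, 1 more than ENO2.

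**Figure D4:**
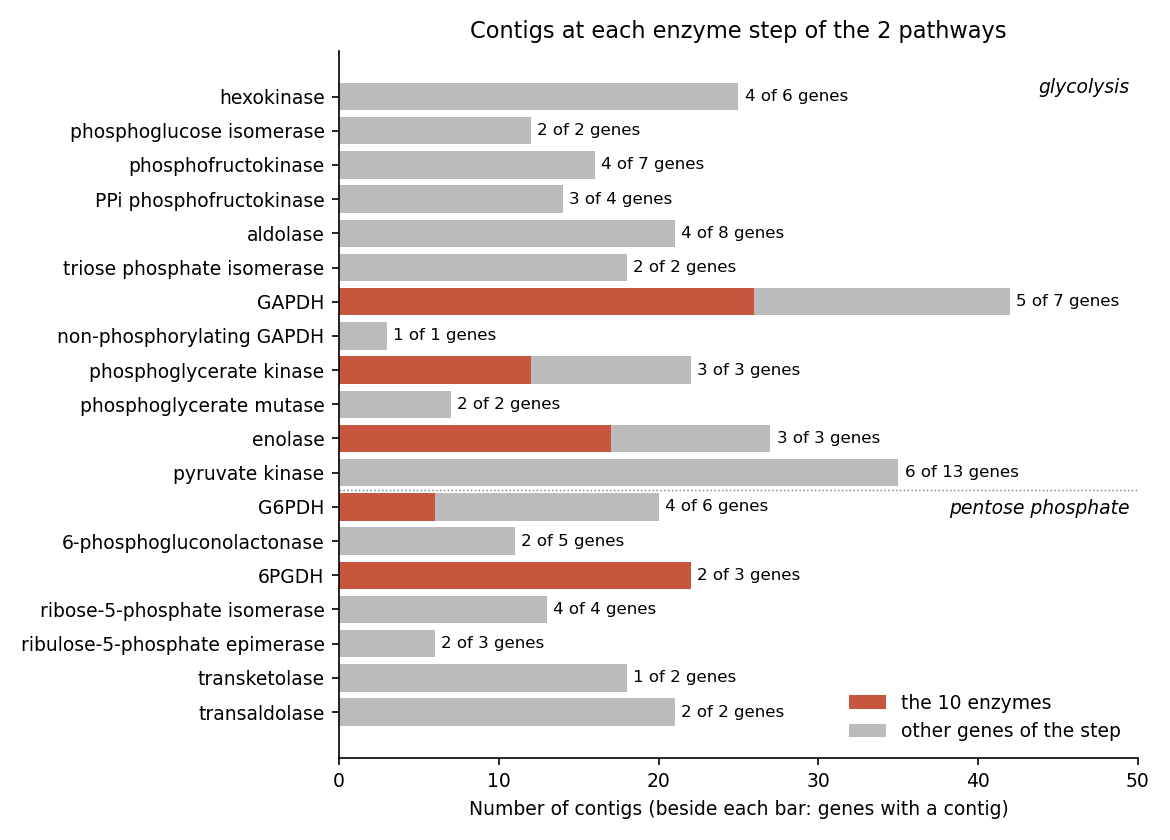
Number of contigs (x axis) at each of the 19 enzyme steps (y axis), in red for the 10 enzymes and in grey for the other genes of the step, with the number of matched genes beside each bar. GAPDH has the most contigs with 42. None of the 21 aldolase contigs is red, and 6PGDH, with 22 contigs, is red throughout because all its genes are among the 10.

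No contig was listed for 27 genes of the list, of which FBA8, G6PD5 and PGD1 are 3. The others in glycolysis were HXK1 (AT4G29130) and HKL2 (AT3G20040) of the hexokinases, PFK1 (AT4G29220), PFK6 (AT4G32840) and PFK7 (AT5G56630) of the phosphofructokinases, a beta subunit of the pyrophosphate-dependent enzyme (AT4G04040), FBA1, FBA4 and FBA7, GAPA2 and GAPCp1, and 7 pyruvate kinases (AT2G36580, AT5G63680, AT3G55650, AT3G55810, AT3G25960, AT3G04050 and AT4G26390). In the pentose phosphate pathway they were G6PD3, the lactonases AT3G49360, AT5G24410 and AT5G24420, an epimerase (AT1G63290) and the transketolase AT3G60750 (TKL1). For each of these 27 genes, at least 1 other gene of the same step was matched.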

How the data were processed

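The 12 libraries came from willow roots. The authors trimmed the reads, assembled them with CLC Genomics Workbench and Trinity, joined these assemblies, found coding sequences with TransDecoder, collapsed similar ones with cd-hit-est and searched the result by BLAST against the annotated *S. purpurea* transcriptome, where top hits were filtered by E value. For differential contigs the study also names a BLAST search of the TAIR database. For the whole assembly, the study gives 64173 of 86843 contigs as annotated with *S. purpurea* as reference. That is the number of contigs with a code here. How the Arabidopsis codes were taken over from that reference is not given in the sources used here. The deposited table is text in 5 columns (contig, parent transcript, gene model code, symbols, description) for the pooled assembly, without counts, lengths or sequences, so that depth and precision per library are unknown. The submitters' processing notes name edgeR (v. 3.28.1), whose count tables were not used here.

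Codes were counted without their suffix. Assemblies, Trinity genes and components were read from the contig names, and names without a Trinity pattern were taken as CLC. No test was planned or made, since nothing is replicated. The genes named are the 10 enzymes, every gene of their families, the gene with the most contigs at each other step, list genes without a contig and any other code on the parent transcript or Trinity gene of an enzyme (there was none). AT5G64620, AT5G39590 and the genes of the search by words, in the closing section, are outside this rule and were named after their values were seen. Markers are named as examples of their lists. The 10 genes, the list of 83 genes, the markers and the compartments were chosen with earlier results of these data known, and the compartments after the counts were seen. The counting per code was tested on simulated names. Each simulated Trinity contig had a component of its own, so that the grouping into Trinity genes and components was not tested. The alternatives were 7 other units or subsets. The intervals came from SciPy (v. 1.17.1), the counts from pandas (v. 2.3.3) with NumPy (v. 2.4.6) and the plots from matplotlib (v. 3.10.9), in Python (v. 3.11.15).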

Additional observations from a re-analysis of the deposited data

How the results depend on the processing

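No paired analysis was possible because no column belongs to a single library. The 7 results were the 83 contigs of the enzymes, their 0.129% share, the median of 9.5, the 55 glycolytic and 28 OPPP contigs, the 5 enzymes with at least 10 contigs and the 56 matched list genes. All 7 stayed within 1.5 times, or for the share within its interval, when parent transcripts were counted and when a description was required. With the first gene models only, 6 of the 7 did, and the enzymes with at least 10 contigs were 3. With Trinity genes in place of contigs, the enzymes had 54 (35 glycolytic) and a share of 0.163%, and 2 of them had at least 10. Among the kept contigs of a single assembly, fewer are counted by construction. The first Trinity assembly gave 55 contigs (35 glycolytic), a share of 0.162%, a median of 6 and 2 enzymes with at least 10. The second gave 9 contigs (8 glycolytic, 1 OPPP), a share of 0.0657%, a median of 0, 0 enzymes with at least 10 and 28 list genes. Contigs without a Trinity name gave 19 contigs (12 glycolytic, 7 OPPP), a median of 2.5 and 0 enzymes with at least 10. In an alternative added once the data had been seen, components also had to share the c number. Then 10.4% of the components of the enzymes held more than 1 Arabidopsis gene, against 12.5%. Over all such components with a coded contig the share was 9.14%.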

Other observations

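In a search of the descriptions by words, chosen after the counts were seen, the names of 3 of the 6 enzyme families also led to genes outside the list. The words for 6-phosphogluconate dehydrogenase were found for 7 codes with 37 contigs. Besides PGD2 and PGD3 these were AT4G20930 with 6 contigs, AT3G07690 with 4 contigs, AT2G41540 (GPDHC1, a glycerol-3-phosphate dehydrogenase) with 3 contigs, and AT1G71180 and AT4G29120 with 1 contig each. The word aldolase was found for 22 codes with 123 contigs, of which 15 codes with 79 contigs are outside the list of both pathways. Examples, picked after their values were seen, are AT1G08630 (THA1, threonine aldolase) with 8 contigs, AT1G69740 (HEMB1, an enzyme of tetrapyrrole synthesis) with 5 contigs and AT5G01410 (PDX1.3, an enzyme of vitamin B6 synthesis) with 3 contigs. For GAPDH, the only code outside the list was AT5G21060, described as GAPDH-like, with 2 contigs. Phosphoglycerate kinase (3 codes, 22 contigs), enolase (3 codes, 27 contigs) and G6PDH (4 codes, 20 contigs) led to no code outside the list.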
